A study of Homo sapiens with 18 samples.

Results

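The 10 genes described here are the AP-1 genes FOS, FOSB, FOSL1, FOSL2, JUN, JUNB and JUND with 3 further early-response genes, EGR1, IER2 and IER3. They were chosen by symbol, and each was found as 1 row among the 40916 gene symbols counted in all 18 libraries. The libraries came from MCF10A, a non-transformed human mammary epithelial line that here expressed H2B-GFP, a fluorescent histone, from HCT116, an unlabelled colorectal carcinoma line, and from 1:1 mixtures of both lines. Each of these cultures was left non-irradiated (NIR) or received 10 Gy of ionizing radiation (IR), with 3 biological replicates in each of the 6 groups. RNA was taken at day 2 by the library titles and at 72 h by the series text, and this disagreement was not resolved. MCF10A grew in F12:DMEM medium with horse serum, EGF, hydrocortisone, cholera toxin and insulin, and HCT116 in McCoy's 5A medium with fetal bovine serum, so that line and medium cannot be told apart. The medium of the mixtures, the promoter behind the H2B-GFP label and the clonal origin of the lines were not stated in the sources used here.

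AP-1 is a dimer of a JUN protein with a FOS, JUN or ATF protein, joined through leucine zippers. FOS, FOSB, JUNB, EGR1, IER2 and IER3 are classically switched on within minutes of growth factor or stress signalling, by factors already present in the cell. Serum response factor and its partners act through CArG boxes, and CREB family proteins act through cAMP response elements. FOSL1 (FRA-1) and FOSL2 (FRA-2) are induced later, last longer and are prominent in growing epithelial and carcinoma cells. Kinases of the JNK group, which respond to stress and radiation, phosphorylate JUN, and JUN can act on its own promoter.

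The promoters of FOS and EGR1 are shown because these genes fell together in irradiated HCT116 cells, and those of FOSB and JUN because these genes rose after irradiation in all 3 kinds of culture. Each line holds the 250 bases before the RefSeq transcription start (GRCh38.p14), 5′ to 3′ on the strand of the gene, with the motif matches in capitals.
FOS: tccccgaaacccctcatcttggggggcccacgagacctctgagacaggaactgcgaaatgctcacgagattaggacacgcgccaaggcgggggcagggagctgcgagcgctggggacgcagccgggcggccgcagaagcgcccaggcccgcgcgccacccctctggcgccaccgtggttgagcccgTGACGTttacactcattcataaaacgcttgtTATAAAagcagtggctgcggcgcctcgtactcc
EGR1: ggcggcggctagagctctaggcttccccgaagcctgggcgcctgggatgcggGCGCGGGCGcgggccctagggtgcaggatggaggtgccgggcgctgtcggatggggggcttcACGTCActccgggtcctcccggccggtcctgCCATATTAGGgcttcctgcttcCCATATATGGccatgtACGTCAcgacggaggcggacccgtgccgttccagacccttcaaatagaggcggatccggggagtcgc
FOSB: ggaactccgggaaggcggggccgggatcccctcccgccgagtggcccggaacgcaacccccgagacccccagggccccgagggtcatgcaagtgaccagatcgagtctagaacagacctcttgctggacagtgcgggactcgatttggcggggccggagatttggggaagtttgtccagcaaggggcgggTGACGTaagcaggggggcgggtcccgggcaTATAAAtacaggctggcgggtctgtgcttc
JUN: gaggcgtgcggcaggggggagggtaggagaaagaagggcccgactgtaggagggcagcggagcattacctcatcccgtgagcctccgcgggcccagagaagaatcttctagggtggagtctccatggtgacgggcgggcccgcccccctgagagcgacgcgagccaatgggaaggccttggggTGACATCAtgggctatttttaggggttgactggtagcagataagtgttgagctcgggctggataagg
The windows lie at chr14:75278578-75278827 (plus strand) for FOS, chr5:138465229-138465478 (plus) for EGR1, chr19:45467746-45467995 (plus) for FOSB and chr1:58784048-58784297 (minus) for JUN. Motifs were searched on both strands in the 8 members for which RefSeq promoter sequence was at hand; FOSL1 and IER3 were not searched. TGACGT, the core of the cAMP response element, was present in 5 of 8 (FOS, FOSB, FOSL2, JUND and EGR1) and in 7.10% of all 35116 promoter windows of this length. This motif was added after the sequences had been seen. In FOS it spans bases -64 to -59 from the start and in FOSB bases -60 to -55. JUN instead carried TGACATCA at -67 to -60, a match to TGACNTCA, which was present in 2 of 8 (JUN and JUND; the JUND match contains TGACGT) and in 6.87% of all windows. EGR1 alone of the 8 carried CArG boxes in its window, at -105 to -96 and at -83 to -74, a motif found in 1.16% of all windows. Bases farther upstream were not searched, so the other members may hold such boxes there. TATAAA was present in FOS, FOSB and JUNB (3 of 8, against 10.7% of all windows). GCGNGGGCG, the binding sequence of EGR proteins, was present in EGR1 (1 of 8, against 8.41%). No window of the 8 held TGANTCA, the AP-1 site, which was present in 6.57% of all windows. IER2 matched none of these motifs. These matches describe letters in the windows, and no binding was measured.

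The libraries held 25737818 to 40839835 counts, with 19356 to 23225 genes counted in each, and the members' counts ran from 44 (FOSB) to 7550 (EGR1) per library. Levels are given as CPM, counts scaled to a library total of 1000000, and changes as log2 fold changes on TMM-scaled counts. CDKN1A, the p21 gene and a marker of the radiation response, was above every matched non-irradiated library in all 9 irradiated libraries, with group means of 172 and 590 CPM in MCF10A, 318 and 1593 in HCT116 and 246 and 1145 in the mixtures. Basal mammary markers (9 genes) summed to 7150 to 7633 CPM in non-irradiated MCF10A and to 466 to 564 CPM in non-irradiated HCT116, with TP63 at 0 in each HCT116 NIR library. Most of the HCT116 sum came from CAV1 (mean 286 CPM) and CDH3 (196 CPM). CDH3 went against the other 8 markers and was higher in HCT116 NIR than in MCF10A NIR (147 CPM). Of 9 intestinal markers, which summed to 304 to 330 CPM in HCT116 NIR, only EPCAM was well expressed; CDX1 and CEACAM5 were at 0 there, so that the list says little on colonic identity. A list of 8 fibroblast and blood cell genes summed to 121 to 133 CPM in MCF10A NIR, nearly all DCN, and to 39.1 to 47.4 CPM in HCT116 NIR, nearly all COL1A1. The share of counts from mitochondrially encoded genes rose with irradiation, from a mean of 5.19 to 6.20% in MCF10A, 8.62 to 11.994% in HCT116 and 8.54 to 12.3% in the mixtures. In refits without mitochondrially encoded genes and the 10 most abundant genes, the only member call that changed was the difference in JUN response between the lines. In RNA from whole cultures, fewer cells expressing a gene and less of its RNA per cell cannot be told apart.

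**Figure D1:**
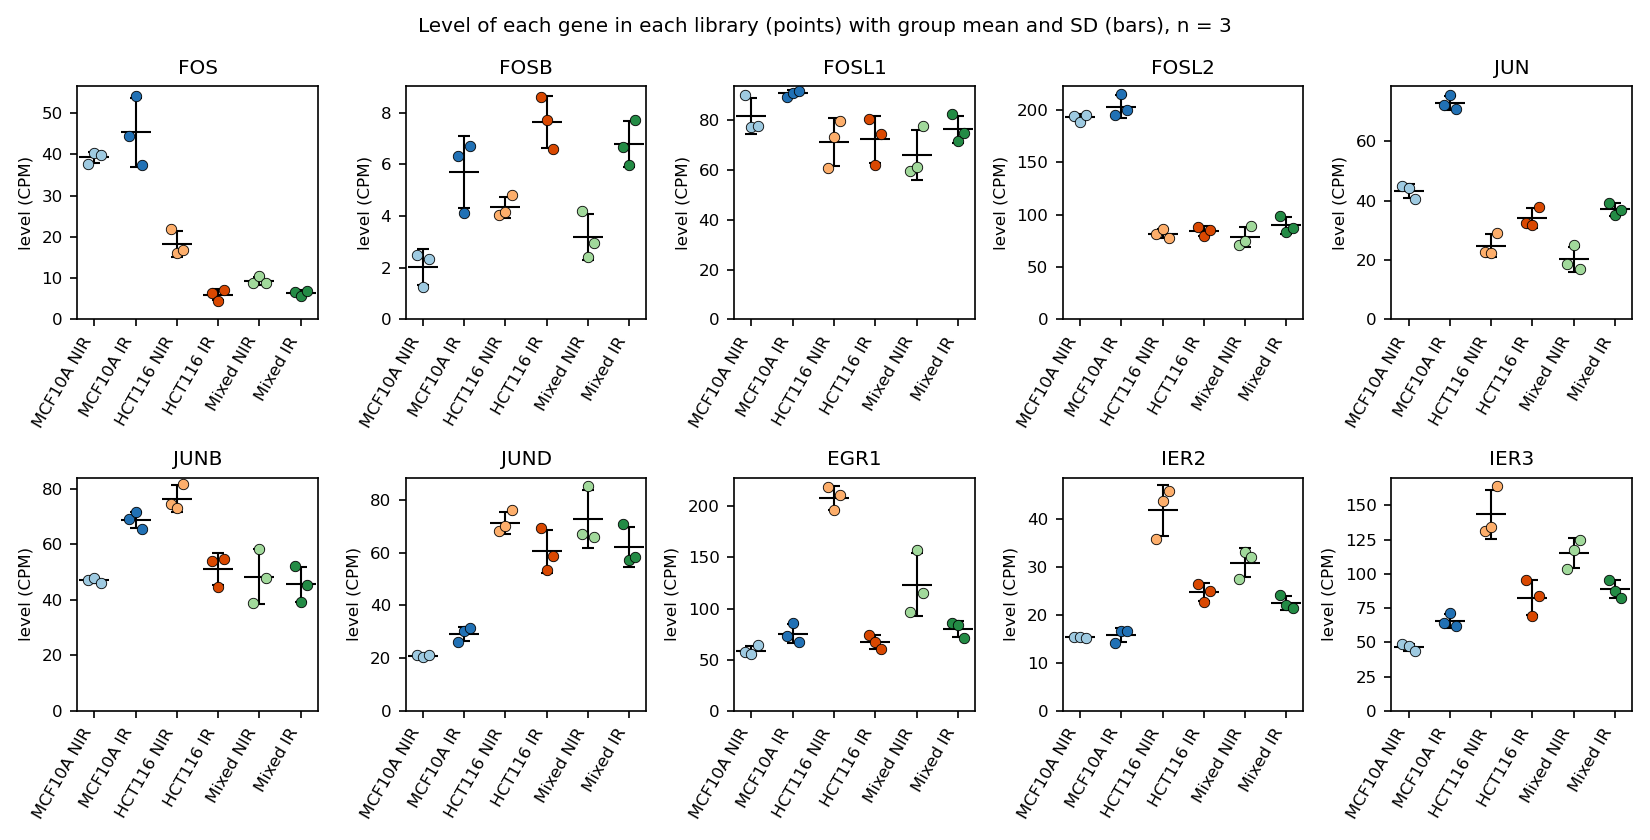
Level of each of the 10 genes (vertical axis, CPM, from 0) in each of the 18 libraries (points), by group, with the group mean and SD (n = 3). EGR1 stands at 196 to 218 CPM in the HCT116 NIR libraries and at 60.7 to 74.2 CPM after irradiation. With the groups ordered by mean CPM, each FOSL1 group overlaps the next.

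Irradiation raised members of this set in MCF10A and lowered most of them in HCT116. In MCF10A 6 of the 10 members rose (FOSB, JUN, JUNB, JUND, EGR1 and IER3) and none fell at an edgeR adjusted p under 0.05, where 26.2% of all genes tested rose and 29.2% fell. In HCT116 2 rose (FOSB and JUN) and 6 fell (FOS, EGR1, IER2, IER3, JUNB and JUND), where 25.3% of all genes rose and 27.2% fell. In the mixtures 2 rose (FOSB and JUN) and 5 fell (FOS, EGR1, IER2, IER3 and JUND), where 24.0% of all genes rose and 25.4% fell. The members' median log2 change was 0.40 in MCF10A, -0.40 in HCT116 and -0.18 in the mixtures, beside 0.00, 0.01 and 0.01 over all genes tested. The response itself differed between the lines for 7 members, all lower in HCT116 than in MCF10A by the interaction term, where 15.4% of all genes were called higher and 21.9% lower. For JUN, 1 of the 7, the interaction was called in only 3 of 9 alternative settings and 5 of 12 fits that left out 1 library. The median of all genes in that interaction was -0.10 and that of the members -0.82.

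**Figure D2:**
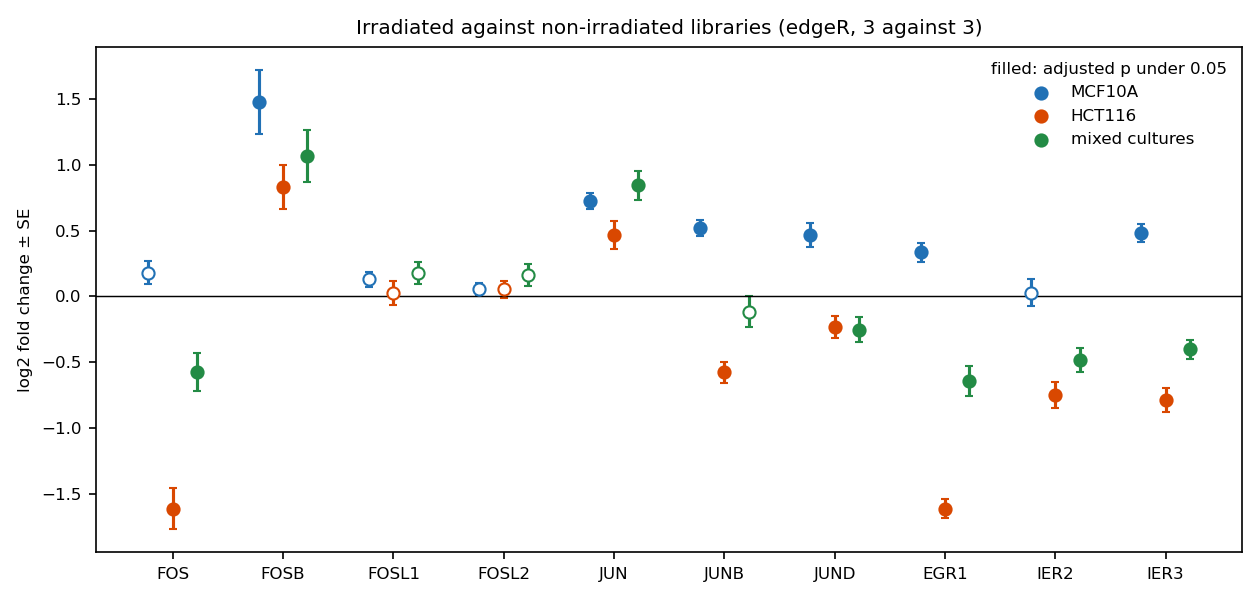
Log2 fold change of irradiated over non-irradiated libraries (vertical axis, ± SE) for each gene in MCF10A, HCT116 and mixed cultures, 3 libraries against 3; filled points have an adjusted p under 0.05. FOSB and JUN lie above 0 in all 3 cultures, and EGR1 lies at 0.34 in MCF10A and at -1.62 in HCT116.

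FOS encodes the archetypal immediate early AP-1 subunit, whose RNA decays within minutes of synthesis (chr14:75278828-75282230, plus strand). Its level in the HCT116 NIR libraries was 21.99, 16.2 and 16.8 CPM, and in the HCT116 IR libraries 6.52, 4.41 and 7.15 CPM. All irradiated libraries lay below all non-irradiated ones, a 3.04-fold lower mean, and the log2 change was -1.61 (SE 0.16, edgeR adjusted p = 9.76e-09). In MCF10A, where FOS was highest, the NIR libraries held 37.7, 40.3 and 39.8 CPM and the IR libraries 44.4, 54.1 and 37.5 CPM. Those groups overlapped, and the log2 change of 0.18 (SE 0.09) did not pass the test (edgeR adjusted p = 0.0893), although it did without irradiated replicate 3 (0.30, adjusted p = 0.0047). The mixtures held 8.87, 10.5 and 8.73 CPM without and 6.75, 5.69 and 6.79 CPM with irradiation, again without overlap (log2 change -0.58, SE 0.14, edgeR adjusted p = 0.00210). The HCT116 response was below that of MCF10A by 1.88 log2 units (-1.88, SE 0.20, edgeR adjusted p = 3.36e-08).

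EGR1, a zinc finger factor induced by the same ERK and SRF signals as FOS, lies at chr5:138465479-138469303 (plus strand). It stood at 218, 196 and 210 CPM in HCT116 NIR and at 74.2, 67.6 and 60.7 CPM in HCT116 IR. The irradiated mean was 3.08-fold lower with no overlap, a log2 change of -1.62 (SE 0.07, edgeR adjusted p = 1.43e-14), next to that of FOS in size. MCF10A moved the other way, from 57.2, 55.6 and 64.0 CPM to 73.2, 86.0 and 67.5 CPM, with every irradiated library above every non-irradiated one (log2 change 0.34, SE 0.07, edgeR adjusted p = 0.000238). EGR1 had the widest gap between the responses of the lines among the members, -2.03 log2 units (SE 0.11, edgeR adjusted p = 6.90e-13). In the mixtures it went from 97.1, 157 and 115 CPM to 85.7, 83.9 and 71.5 CPM. The mixed NIR libraries spread widely (SD 30.8 CPM), and the log2 change of -0.64 (SE 0.12, edgeR adjusted p = 8.51e-05) became -0.43 (adjusted p = 0.000354) without mixed NIR replicate 2, the highest of them.

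IER2 and IER3 followed EGR1 in HCT116. IER2, a small nuclear early-response protein (chr19:13150411-13154911, plus strand), was at 35.8, 43.6 and 45.7 CPM in HCT116 NIR and at 26.4, 22.7 and 24.9 CPM after irradiation. Every irradiated library was lower (log2 change -0.75, SE 0.10, edgeR adjusted p = 7.58e-07). In MCF10A, where IER2 was lowest, NIR libraries held 15.3, 15.4 and 15.3 CPM and IR libraries 14.2, 16.7 and 16.7 CPM, which overlapped and did not differ by the test (log2 change 0.03, SE 0.10, edgeR adjusted p = 0.827). IER3, also known as IEX-1, modulates survival and ERK signalling (chr6:30743199-30744547, minus strand). It stood at 131, 135 and 164 CPM in HCT116 NIR and at 95.4, 69.3 and 83.5 CPM in HCT116 IR, a log2 change of -0.79 (SE 0.09, edgeR adjusted p = 1.90e-07) with no overlap. In MCF10A it rose from 48.6, 47.4 and 43.4 CPM to 64.1, 71.8 and 61.8 CPM, all above the NIR libraries (log2 change 0.48, SE 0.07, edgeR adjusted p = 5.63e-07). The responses of the lines differed by -0.86 for IER2 (SE 0.15, edgeR adjusted p = 3.84e-05) and by -1.35 for IER3 (SE 0.13, edgeR adjusted p = 1.32e-08). Both genes also fell in the mixtures, IER2 from a mean of 30.8 ± 3.06 to 22.5 ± 1.45 CPM and IER3 from 115 ± 10.7 to 88.7 ± 6.52 CPM (SD, n = 3), without overlap.

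FOSB and JUN rose in all 3 kinds of culture, with each irradiated library above each matched non-irradiated one. FOSB (chr19:45467996-45475179, plus strand) pairs with JUN proteins and is known for long-lived splice forms. It had the lowest mean CPM of the members except in HCT116 IR and mixed IR. FOS was lower there, at 6.03 against 7.65 CPM in HCT116 IR and 6.41 against 6.78 CPM in mixed IR. FOSB libraries went from 2.50, 1.24 and 2.36 CPM to 6.32, 4.12 and 6.70 CPM in MCF10A, a log2 change of 1.48 (SE 0.24, edgeR adjusted p = 7.19e-06). HCT116 libraries went from 4.05, 4.16 and 4.81 CPM to 8.62, 7.74 and 6.61 CPM (log2 change 0.83, SE 0.17, edgeR adjusted p = 0.000234). The mixtures went from 4.19, 2.42 and 2.97 CPM to 6.66, 5.96 and 7.73 CPM (log2 change 1.07, SE 0.20, edgeR adjusted p = 0.000114). The difference between the lines' FOSB responses did not pass the test (-0.73, SE 0.32, edgeR adjusted p = 0.0770). ERCC1, which overlaps FOSB on the opposite strand at a mean of 46.9 to 76.0 CPM by group, was also higher in irradiated cultures. Whether the authors' counting used strand is not given in the sources used here, so reads of ERCC1 in FOSB's exons cannot be told apart from its own.

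JUN, the founding AP-1 subunit and a target of JNK (chr1:58780791-58784047, minus strand), showed tight replicates in MCF10A. Its NIR libraries held 45.05, 44.3 and 40.6 CPM and its IR libraries 72.3, 75.7 and 71.0 CPM. The mean was 1.68-fold higher after irradiation (log2 change 0.73, SE 0.06, edgeR adjusted p = 5.34e-11). In HCT116 JUN moved from 22.9, 22.4 and 29.2 CPM to 32.6, 31.9 and 37.999 CPM (log2 change 0.47, SE 0.10, edgeR adjusted p = 0.000629). In the mixtures it moved from 18.5, 25.1 and 17.1 CPM to 39.3, 35.1 and 36.7 CPM (log2 change 0.85, SE 0.11, edgeR adjusted p = 1.84e-06). The smaller JUN response of HCT116 was called against that of MCF10A (-0.34, SE 0.13, edgeR adjusted p = 0.0368), but 7 of the 12 fits that left out 1 library lost this call, as did 6 of the 9 alternative settings (adjusted p up to 0.235). Without HCT116 IR replicate 2, HCT116 NIR replicate 3 or MCF10A IR replicate 2 the difference was -0.19, -0.20 and -0.20, with adjusted p of 0.317, 0.175 and 0.287.

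JUNB and JUND, the JUN family members that often oppose JUN in growth control, rose in irradiated MCF10A and fell in irradiated HCT116. JUNB (chr19:12791486-12793315, plus strand) went from 47.1, 48.0 and 46.2 CPM to 69.0, 71.5 and 65.7 CPM in MCF10A (log2 change 0.52, SE 0.06, edgeR adjusted p = 2.07e-08). In HCT116 it went from 74.3, 73.0 and 81.9 CPM to 54.0, 44.5 and 54.6 CPM (log2 change -0.58, SE 0.08, edgeR adjusted p = 1.69e-06). Neither pair of groups overlapped, and the responses differed by -1.18 (SE 0.10, edgeR adjusted p = 1.90e-09). In the mixtures JUNB spread from 38.7 to 58.5 CPM without and from 39.3 to 52.1 CPM with irradiation, and its log2 change of -0.11 (SE 0.11) did not pass the test (edgeR adjusted p = 0.434). HOOK2 overlaps JUNB on the opposite strand at 16.7 to 66.3 CPM by group, and its reads carry the same uncertainty as those of ERCC1. Its mean went from 16.7 to 19.1 CPM in irradiated MCF10A, 64.2 to 57.0 in HCT116 and 66.3 to 62.7 in the mixtures, the same directions as JUNB. Like JUNB it was higher in HCT116 NIR than in MCF10A NIR. Among the other members, FOSL2 overlaps AC104695.3 on the same strand and FLJ31356 on the opposite strand. IER2 and IER3 overlap AC011446.2 and IER3-AS1 on the opposite strand. Means of IER3-AS1 were 0.247 to 1.08 CPM by group. Whether reads of these genes entered the members' counts was not tested.

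JUND is the JUN family gene usually expressed without stimulation (chr19:18279694-18281622, minus strand). Its MCF10A libraries rose from 21.1, 20.3 and 21.0 CPM to 25.9, 30.2 and 31.3 CPM without overlap (log2 change 0.47, SE 0.09, edgeR adjusted p = 4.82e-05). HCT116 libraries held 68.0, 69.9 and 76.1 CPM without and 69.4, 53.5 and 58.7 CPM with irradiation, which overlapped. The fall of 0.23 there (log2 change -0.23, SE 0.08, edgeR adjusted p = 0.0220) rested on single libraries: without HCT116 IR replicate 2, HCT116 IR replicate 3 or HCT116 NIR replicate 3 the adjusted p was 0.171, 0.1003 and 0.0960, and the change without the first of these was -0.15. Mixed libraries held 66.8, 85.2 and 65.9 CPM and then 70.9, 57.2 and 58.3 CPM, with a log2 change of -0.25 (SE 0.10, edgeR adjusted p = 0.0321) that became -0.12 (adjusted p = 0.291) without mixed NIR replicate 2; it was also lost without mixed IR replicate 2 (adjusted p = 0.151) or mixed IR replicate 3 (adjusted p = 0.130). The difference in JUND response between the lines was called in every fit that left out 1 library (-0.78, SE 0.13, edgeR adjusted p = 2.47e-05).

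In the main fits FOSL1 and FOSL2 did not pass the test after irradiation in any of the 3 kinds of culture. FOSL1 (chr11:65892049-65900545, minus strand) ranged from 77.4 to 89.9 CPM in MCF10A NIR and from 89.4 to 91.7 CPM in MCF10A IR, and its log2 change of 0.13 (SE 0.06) just missed the threshold (edgeR adjusted p = 0.0515). Without MCF10A NIR replicate 1 it was 0.21 (adjusted p = 0.00392). It was called in 6 of the 9 alternative settings, so this result depends on the processing (adjusted p 0.00198 to 0.322 over the edgeR and DESeq2 settings). In HCT116 its libraries spread from 60.9 to 79.5 CPM and from 62.0 to 80.3 CPM, a log2 change of 0.03 (SE 0.09, edgeR adjusted p = 0.830). FOSL2 (chr2:28392858-28417317, plus strand) had log2 changes of 0.06 (SE 0.05) in MCF10A, 0.05 (SE 0.07) in HCT116 and 0.16 (SE 0.08) in the mixtures, none past the test (edgeR adjusted p = 0.321, 0.513 and 0.109). In the mixtures FOSL1 changed by 0.18 (SE 0.09, edgeR adjusted p = 0.0950). Without mixed NIR replicate 3 both passed, FOSL1 at 0.30 (adjusted p = 0.00272) and FOSL2 at 0.26 (adjusted p = 0.0107).

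The lines differed in most members before irradiation, as they did in most of all genes tested. HCT116 NIR libraries were higher than MCF10A NIR libraries for 6 members and lower for 4, where 38.7% of all genes were called higher and 36.1% lower. EGR1 was 3.53-fold, JUND 3.43-fold, IER3 3.09-fold, IER2 2.72-fold, FOSB 2.14-fold and JUNB 1.62-fold higher by mean CPM, and the libraries of the lines did not overlap for these 6 genes. FOSL2 was 2.35-fold, FOS 2.14-fold and JUN 1.75-fold lower in HCT116, without overlap. The share of all genes without overlap between the lines was not computed. FOSL1 was called lower (log2 difference -0.39, SE 0.09, edgeR adjusted p = 0.000576), although its CPM overlapped, and the call was lost with upper-quartile scaling (-0.19, adjusted p = 0.0557).

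After irradiation the balance turned: 2 members were higher in HCT116 (JUND and IER2) and 6 were lower (FOS, FOSL1, FOSL2, JUN, JUNB and EGR1), where 38.1% of all genes were higher and 36.8% lower. FOS differed most, at 44.4, 54.1 and 37.5 CPM in MCF10A IR against 6.52, 4.41 and 7.15 CPM in HCT116 IR, a 7.52-fold lower mean (log2 difference -3.16, SE 0.14, edgeR adjusted p = 8.63e-17). JUNB, which had been higher in HCT116 by 0.50 log2 units (SE 0.07), stood at -0.66 after irradiation (SE 0.07, edgeR adjusted p = 7.28e-09). EGR1 went from 1.62 log2 units higher (SE 0.06) to -0.39 (SE 0.08, edgeR adjusted p = 9.94e-05), but the CPM of its irradiated libraries overlapped between the lines and the call was lost with library sizes alone (-0.16, adjusted p = 0.0712). FOSB and IER3 no longer differed by the test (log2 difference 0.19, SE 0.18, and 0.10, SE 0.08; edgeR adjusted p = 0.337 and 0.292).

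Ordering the 6 groups by mean CPM, FOS ran from MCF10A IR (45.3) and MCF10A NIR (39.3), which overlapped, through HCT116 NIR (18.3) and mixed NIR (9.37) to mixed IR (6.41) and HCT116 IR (6.03), which overlapped as well. EGR1 ran from HCT116 NIR (208) to mixed NIR (123), after which each of the remaining 4 groups, between 58.9 and 80.4 CPM, overlapped its neighbour. By CPM FOSL1 spanned 1.37-fold from the highest to the lowest group and each group overlapped the next, whereas FOS spanned 7.52-fold. On TMM-scaled counts FOSL1 in HCT116 IR differed from MCF10A IR by -0.56 log2 units (SE 0.07, edgeR adjusted p = 8.23e-08). The CPM of these groups did not overlap. With TMM-scaled library sizes of all 18 libraries, 15 of 60 group levels of the members moved by 1 SD or more, so the order depends on the scaling. For JUND all 4 groups with HCT116 cells (60.5 to 72.6 CPM) lay above MCF10A IR (29.1) and MCF10A NIR (20.8), which stood apart from each other.

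The mixtures were read against HCT116 alone because little MCF10A RNA was found in them. From genes at 20 CPM or more in 1 line and under 1 CPM in each library of the other, MCF10A contributed 0.498, 0.368 and 0.395% of the RNA in the mixed NIR libraries and 1.24, 1.17 and 1.27% in the mixed IR libraries, although the labels give a 1:1 mixture. With under 0.2 CPM required in the other line the mean of the mixed NIR libraries was 0.263% in place of 0.420%, and that of the mixed IR libraries 0.843% in place of 1.23%. These shares take MCF10A cells in the mixtures to express each gene as in MCF10A alone under the same treatment. Whether this holds was not tested. On that assumption MCF10A RNA would make up 0.120 to 1.76% of a member's level in the mixed NIR libraries. In the mixed IR libraries it would make up 0.576 to 8.67%. FOS had the highest value under either treatment. Because the medium of the mixtures is not stated, culture with MCF10A and medium cannot be told apart.

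Without irradiation, 4 of the 10 members (FOS, JUNB, EGR1 and IER2) were lower in the mixtures than in HCT116 alone and none was higher, where 0.887% of all genes were called higher and 1.15% lower. FOS stood at 8.87, 10.5 and 8.73 CPM against 21.99, 16.2 and 16.8 CPM (log2 difference -0.95, SE 0.13, edgeR adjusted p = 0.000362), and EGR1 at 97.1, 157 and 115 CPM against 218, 196 and 210 CPM (-0.74, SE 0.11, edgeR adjusted p = 0.00106). JUNB, at 38.7, 58.5 and 47.7 CPM against 74.3, 73.0 and 81.9 CPM, differed by -0.64 (SE 0.11, edgeR adjusted p = 0.00244). No mixed library reached the HCT116 range for these 3 genes, and their calls held in each fit that left out 1 library. IER2 (-0.42, SE 0.10, edgeR adjusted p = 0.0364) lost its call without HCT116 NIR replicate 2, HCT116 NIR replicate 3 or mixed NIR replicate 1 (adjusted p = 0.168, 0.147 and 0.229). IER3 was lower in every mixed library (103, 118 and 124 CPM against 131, 135 and 164 CPM) but did not pass the test (-0.30, SE 0.09, edgeR adjusted p = 0.0823). JUND, FOSL1 and FOSL2 differed by 0.04 (SE 0.09), -0.09 (SE 0.10) and -0.04 (SE 0.08), and none passed.

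**Figure D3:**
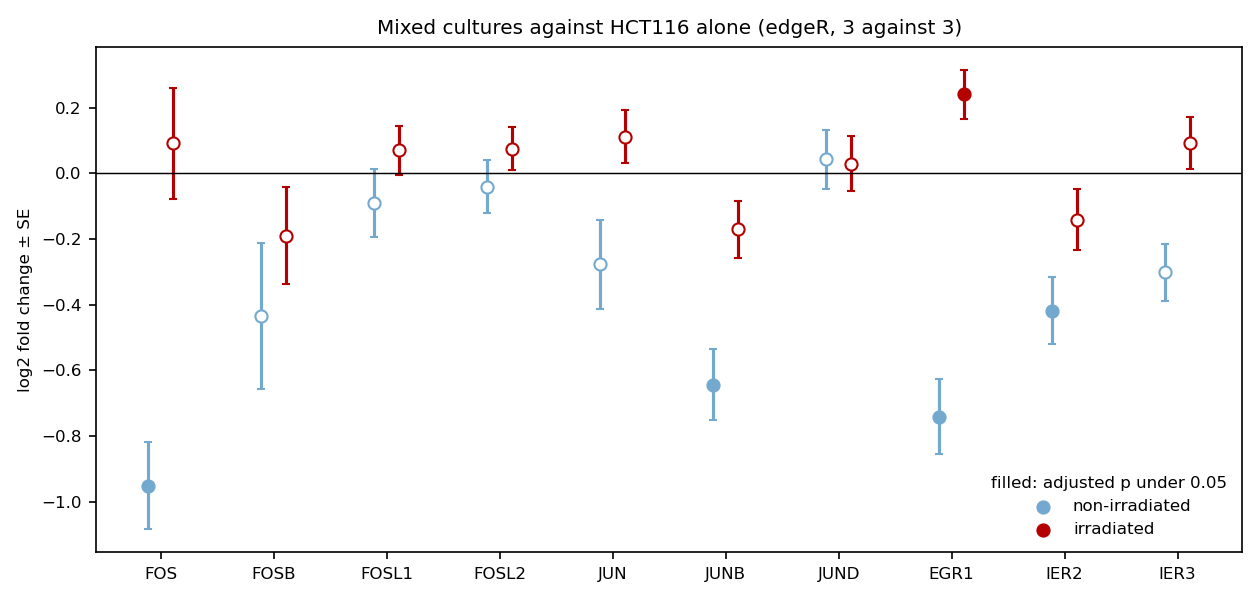
Log2 fold change of mixed cultures over HCT116 alone (vertical axis, ± SE) for each gene, without and with irradiation, 3 libraries against 3; filled points have an adjusted p under 0.05. FOS, JUNB, EGR1 and IER2 lie below 0 without irradiation, and every irradiated value lies between -0.19 and 0.24.

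With irradiation the mixtures and HCT116 alone were closer by log2 difference for the genes called without it, FOS, EGR1, JUNB (-0.17, SE 0.09) and IER2 (-0.14, SE 0.09). That change was called only for FOS and EGR1, as given below. EGR1 was the 1 member called higher in the mixtures and none was lower, where 5.08% of all genes were higher and 3.48% lower. EGR1 was at 85.7, 83.9 and 71.5 CPM in the mixtures and at 74.2, 67.6 and 60.7 CPM in HCT116, which overlapped (log2 difference 0.24, SE 0.07, edgeR adjusted p = 0.0385). Its call was lost without HCT116 IR replicate 2 or 3 or mixed IR replicate 1 or 2, with an adjusted p of 0.109, 0.250, 0.178 and 0.181. FOS differed by 0.09 (SE 0.17, edgeR adjusted p = 0.821).

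The response of the mixtures was above that of HCT116 for 2 members, FOS and EGR1, and below it for none, where 0.681% of all genes were called higher and 0.149% lower. EGR1's responses differed by 0.98 log2 units (SE 0.16, edgeR adjusted p = 0.000961) and held in every fit that left out 1 library. FOS's differed by 1.05 (SE 0.22, edgeR adjusted p = 0.0168), a call lost in 5 of 12 such fits (without HCT116 NIR replicate 1, HCT116 IR replicate 2, or mixed NIR replicate 1, mixed IR replicate 1 or mixed IR replicate 3; adjusted p 0.0571 to 0.0775). This comparison uses all the HCT116 and mixed libraries of both comparisons above and is the difference between those comparisons, so its values are not independent of them.

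Per kilobase of exon, which allows levels of different genes to be set side by side, FOSL1 was the main FOS family transcript in every group. By CPM alone FOSL2 was above FOSL1 in every group, as in MCF10A NIR (193 against 81.6 CPM). The order thus rests on the exonic lengths used, 7157 bases for FOSL2 and 1887 for FOSL1. These lengths pool all annotated transcripts, and the forms expressed here were not determined. It made up 52.3% ± 2.28 (SD, n = 3) of the family in MCF10A NIR and 67.7% ± 4.18 in HCT116 NIR. The share of FOS was 14.7% ± 1.14 and 15.2% ± 2.24 in MCF10A NIR and IR, but went from 10.3% ± 2.59 to 3.46% ± 0.559 in HCT116. FOSB held 0.440% ± 0.140 of the family in MCF10A NIR and at most 2.60% ± 0.408, in HCT116 IR. In the JUN family JUNB led in MCF10A NIR (52.5% ± 0.589) and in HCT116 NIR (48.1% ± 0.539, beside 43.9% ± 0.707 for JUND), while JUND led in HCT116 IR (46.2% ± 2.66) and mixed NIR (54.9% ± 2.31). JUN went from 8.00% ± 0.673 to 13.8% ± 1.52 of its family in irradiated HCT116 and from 24.8% ± 0.883 to 27.8% ± 0.378 in irradiated MCF10A.

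**Figure D4:**
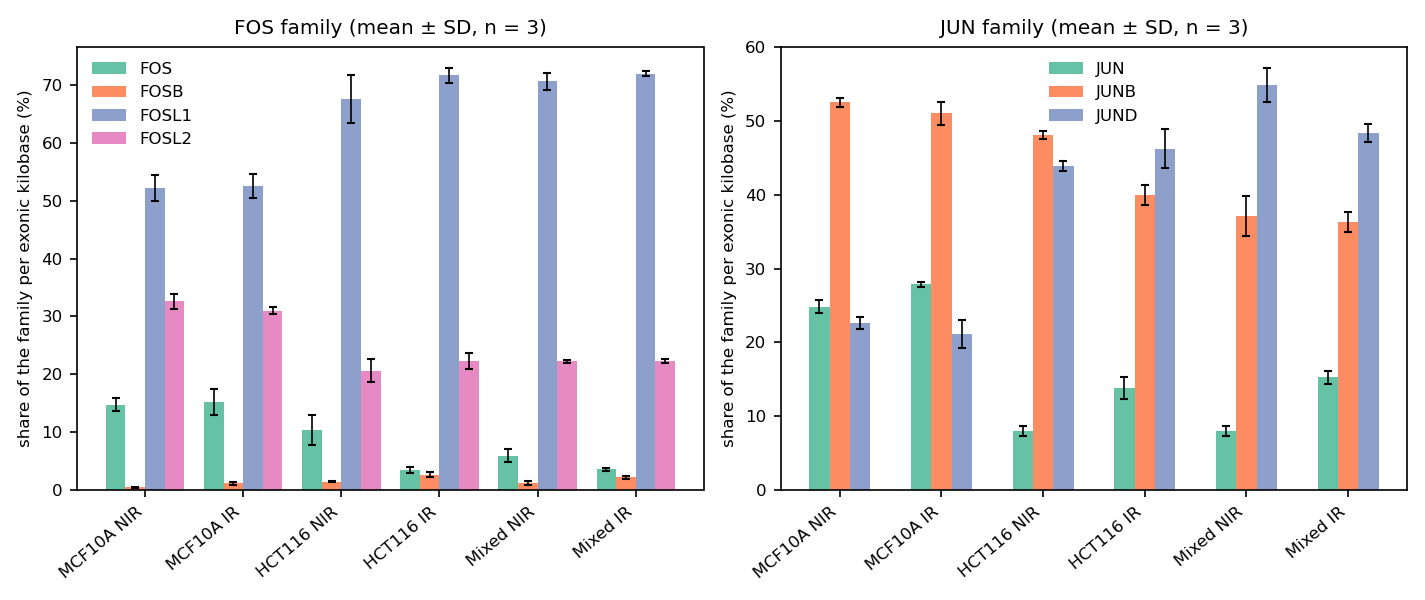
Share of each gene in its family's summed level per exonic kilobase (vertical axis, percent, from 0) by group, FOS family left and JUN family right, with bars for the mean and SD of 3 libraries. FOSL1 is the tallest FOS family bar in each group, and JUND exceeds JUNB in the irradiated HCT116 and both mixed groups.

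For other genes of the pathway, counts are to be read beside the shares of all genes called higher and lower, 26.2 and 29.2% in MCF10A, 25.3 and 27.2% in HCT116 and 24.0 and 25.4% in the mixtures. A gene named as rising or falling most comes first among those called whose mean reached 10 CPM on 1 side of the comparison, and some genes of lower level changed more. The bZIP partners (ATF, MAF and BATF genes, which share the leucine zipper) had 5 of 11 tested genes higher and 2 lower in irradiated MCF10A, 3 of 10 higher and 4 lower in HCT116, and 2 of 11 higher and 1 lower in the mixtures. ATF3, a stress-induced partner of JUN, rose most by this rule in each, by 2.85 log2 units in MCF10A (1.40 to 10.3 CPM; SE 0.18, edgeR adjusted p = 1.60e-13), 1.74 in HCT116 (27.8 to 92.3 CPM; SE 0.07, edgeR adjusted p = 2.46e-15) and 1.77 in the mixtures (24.6 to 85.6 CPM; SE 0.13, edgeR adjusted p = 1.84e-10). ATF2, another dimer partner of JUN, fell most by this rule in HCT116 (-0.78, 53.4 to 31.2 CPM) and the mixtures (-0.56, 54.0 to 37.3 CPM).

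The 19 upstream kinases and factors, among them ERK and JNK kinases, SRF, ELK factors and CREB1, gave 8 lower and 5 higher in irradiated MCF10A, 10 lower and 3 higher in HCT116, and 12 lower and 1 higher in the mixtures. Their median log2 change was -0.10, -0.20 and -0.29, beside 0.00, 0.01 and 0.01 over all genes. MAPK3, which encodes the kinase ERK1, rose in MCF10A (0.56, 14.0 to 21.0 CPM), and MAP2K7, an activator of JNK, fell there (-0.42, 35.3 to 26.8 CPM). MRTFA, an SRF cofactor, rose in HCT116 (0.53) and the mixtures (0.38), and RPS6KA3, an ERK-activated kinase, fell in both (-0.58 and -0.56). In MCF10A these 2 genes changed in the same directions (0.47 and -0.24). MAP2K7 also fell in HCT116 (-0.44) and the mixtures (-0.35), whereas MAPK3 fell there (-0.51 and -0.34).

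Other immediate early genes had 24 of 34 tested genes higher and 3 lower in irradiated MCF10A, 12 of 35 higher and 12 lower in HCT116, and 15 of 35 higher and 6 lower in the mixtures. The interaction was called for 24 of 36, with 20 lower in HCT116 and 4 higher, where 21.9% of all genes were lower and 15.4% higher. At 10 CPM or more, HBEGF, an EGF receptor ligand, rose most in MCF10A (1.58, 24.9 to 75.6 CPM) and MYC fell most (-0.26, 366 to 311 CPM). By the same limit PLK2, a kinase of the polo family, rose most in HCT116 (2.42, 28.2 to 149 CPM) and the mixtures (2.10, 36.0 to 157 CPM), while KLF2 fell most in both (-2.53, 23.5 to 3.98 CPM, and -2.21, 27.7 to 6.13 CPM). Against HCT116 alone, 6 of 35 were lower and 1 higher in the non-irradiated mixtures (1.15 and 0.887% of all genes), where none of 10 bZIP partners and none of 19 upstream genes was called.

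Genes commonly listed as AP-1 targets, such as matrix proteases and their regulators, had 19 of 24 tested genes higher and 3 lower in irradiated MCF10A (median log2 change 1.37, beside 0.00 over all genes). In HCT116 7 of 16 were higher and 4 lower, and in the mixtures 12 of 19 were higher and 2 lower. At 10 CPM or more, IVL, a cornified envelope protein of stratified epithelia, rose most in MCF10A (2.33, 2.07 to 10.6 CPM) and AXL, a receptor kinase, fell most (-0.61, 149 to 99.5 CPM). The proteases MMP1, MMP3, MMP9 and MMP10, below that level, rose by 2.76 to 3.14. MMP13, also on the list, rose less (1.86, SE 0.49, edgeR adjusted p = 0.00202). By the same limit CCND1, which encodes cyclin D1, rose most in HCT116 (1.91, 497 to 1861 CPM), and PLAUR, the urokinase receptor, fell most (-0.77, 52.1 to 30.5 CPM). HMGA1, a chromatin protein, fell most by that limit in the mixtures (-0.35, 1343 to 1074 CPM). Other signals also act on each of these genes, and AP-1 activity was not measured.

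Across the 18 libraries, after the mean of each kind of culture was subtracted, the members fell into sets that moved together. FOS and EGR1 had a Pearson r of 0.93, EGR1 and IER2 0.90, EGR1 and IER3 0.88, JUNB and IER3 0.88, and FOSB and JUN 0.80, whereas FOSB and IER2 stood at -0.56. These values share the irradiation contrast and the libraries and are given as descriptions. Among 9920 genes with a mean of at least 10 CPM, the patterns most like that of EGR1 were those of WDR31 (r = 0.981), VGF (0.964) and PRSS12 (0.961), and those most like that of FOS were DNM1 (0.954), LTBP1 (0.954) and GALNT3 (0.940). JUN was most like EPHA2 (0.965) and ISG15 (0.956). FOSL1 had weaker matches in SH2B1 (0.888), NOL3 (0.822) and HRH1 (0.811). VGF, a secreted neuroendocrine precursor and itself a growth factor response gene, went from 80.3 to 25.6 CPM in irradiated HCT116 and from 1.52 to 2.30 CPM in irradiated MCF10A.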

How the data were processed

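Poly(A)-selected RNA from 18 cultures was sequenced in pairs of reads, per the labels. The authors deposited whole-number counts per gene symbol, 1 file per library; per the submitters' processing notes the steps used fastp, STAR and featureCounts on GRCh38, and the annotation, the strand setting and the versions are not given in the sources used here. Among counts from 1 to 10, 68.3% were even, and halved counts were run as an alternative; the cause was not tested.

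From these counts CPM over the library total was computed, and edgeR 4.0.16 (R 4.3.3) was fitted per comparison with TMM scaling, filterByExpr, glmQLFit and glmQLFTest, 2-sided, with Benjamini-Hochberg adjustment over all genes tested and a threshold of 0.05. SE is the log2 fold change divided by the root of the F statistic. The fits were tested on simulated counts. All 10 members passed the filter in each of the 9 comparisons. The 9 alternatives were DESeq2 1.42.0 (its Wald test, and its size factors in edgeR), upper-quartile factors, library sizes alone, no filter, halved counts, removal of mitochondrial and the 10 most abundant genes, all 18 libraries in 1 fit and a replicate block, and each library was left out in turn. Nothing beyond the word biological says that replicates are separate cultures, so the p-values measure the spread between these libraries. Deviations of same-numbered libraries from their group means were weakly correlated at most (r -0.162 to 0.209). This check cannot settle whether the numbers pair the libraries, and the main fits treat them as unpaired.

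The MCF10A share of a mixture used genes with at least 20 CPM in 1 line and under 1 CPM in each library of the other. Exonic lengths came from GENCODE 29, and gene positions and promoters from RefSeq GRCh38.p14. Named genes were all members; for each other list the gene with the largest called rise and fall per irradiation comparison at 10 CPM or more; the 3 genes of highest Pearson r of log2(CPM + 1) with FOS, FOSL1, JUN and EGR1; and CDKN1A. The MMP genes were named after their values were seen. Some genes this rule names are not reported here. Members and lists were chosen with earlier results of these data known.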

Additional observations from a re-analysis of the deposited data

Results flagged for a closer look

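The difference between the irradiation response of HCT116 and that of MCF10A was tested by an interaction term in edgeR's quasi-likelihood test. It was called for 7 of the 10 genes, each of them lower in HCT116, where 15.4% of all genes were called higher and 21.9% lower. The difference was -1.88 log2 units for FOS, -2.03 for EGR1, -1.35 for IER3, -1.18 for JUNB, -0.86 for IER2 and -0.78 for JUND, and each of these calls held in all 12 fits that left out 1 library. For EGR1, IER3, JUNB and JUND the lines moved in opposite directions, while FOS and IER2 fell in HCT116 with no called change in MCF10A. The share of all genes with opposite directions was not computed. For JUN, which rose in both lines, the difference was -0.34 and was called in 5 of 12 such fits and in 3 of 9 alternative settings.

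The same test called the response of the mixtures above that of HCT116 for FOS, by 1.05, and for EGR1, by 0.98. The non-irradiated mixtures were the lower of the non-irradiated groups for both genes (9.37 ± 0.982 against 18.3 ± 3.20 CPM for FOS and 123 ± 30.8 against 208 ± 11.5 CPM for EGR1; SD, n = 3), while the irradiated groups lay at 6.41 ± 0.621 and 6.03 ± 1.44 CPM for FOS and at 80.4 ± 7.69 and 67.5 ± 6.75 CPM for EGR1. FOS was called in 7 of 12 fits that left out 1 library and EGR1 in 12 of 12.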

How the results depend on the processing

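Over 9 alternative settings and the fits that left out 1 library, 1371 of 1470 refitted member values kept direction and call, 39 lost the call, 29 gained it and 31 changed sign; the cause was not tested. Members called higher in irradiated mixtures numbered 4 with upper-quartile factors and 2 to 4 with 1 library left out. Those higher in HCT116 IR than MCF10A IR numbered 4 with library sizes alone, a setting added after seeing the data. Those higher in mixed IR than HCT116 IR numbered 0 with DESeq2's Wald test and with all 18 libraries in 1 fit, and 0 to 1 with 1 library left out (lower: 0 to 1). For the response of mixtures over HCT116 they numbered 4 with no filter and 1 to 3 with 1 library left out. The MCF10A RNA share, 0.420% (NIR) and 1.23% (IR), was 0.339 and 1.03% from genes at 50 CPM or more and 0.263 and 0.843% with under 0.2 CPM in the other line.

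No called value changed sign. The JUN response difference between the lines lost its call in 6 of 9 settings (-0.31 to -0.24; adjusted p 0.0565 to 0.235). JUND lost its call with all 18 libraries in HCT116 (adjusted p = 0.0758) and in the mixtures with all 18 libraries, upper-quartile factors and library sizes alone (adjusted p = 0.0835, 0.0608 and 0.0503). The response difference of HCT116 and MCF10A for FOSL2 became 0.0226 without mitochondrial and the 10 most abundant genes, 0.0230 with no filter and 0.0201 with all 18 libraries; that of mixtures and HCT116 for JUND became 0.0035 with all 18 and 0.0105 with library sizes alone. With 1 library left out, ranges crossed 0 for IER2 in MCF10A (-0.0133 to 0.102), FOSL1 in HCT116 (-0.0855 to 0.125) and JUNB in mixtures (-0.260 to 0.0472); between irradiated lines for FOSB (-0.0015 to 0.32) and IER3 (-0.0257 to 0.208); for the line response difference of FOSL1 (-0.292 to 0.0243) and FOSL2 (-0.116 to 0.0743); for mixed NIR against HCT116 NIR for FOSL1 (-0.23 to 0.0064), FOSL2 (-0.147 to 0.0247) and JUND (-0.0903 to 0.107); for mixed IR against HCT116 IR for FOS (-0.10 to 0.22), FOSL1 (-0.0304 to 0.158), FOSL2 (-0.0062 to 0.13), JUND (-0.0814 to 0.142) and IER3 (-0.0214 to 0.213); and for the mixed response difference of JUND (-0.15 to 0.10).

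With upper-quartile factors FOS, FOSL1 and FOSL2 also rose in MCF10A IR (0.27, 0.22 and 0.14). Upper-quartile factors and library sizes alone moved the median of all genes in the NIR line comparison from 0.05 to 0.25, and the share of calls that were higher from 51.8% to 62.4 and 62.2%; library sizes alone moved it from 50.9% to 62.4% between irradiated lines. Upper-quartile factors moved it from 47.4% to 57.5% in MCF10A IR. For the line response difference it went from 41.3% to 52.5% without mitochondrial and the most abundant genes. Counts over all genes moved most in the mixed comparisons: 146 higher and 189 lower for NIR became 276 and 300 with DESeq2 and 308 and 363 with no filter, and all 18 libraries gave 490 higher (63.8% of calls against 43.6%). Whether replicate numbers pair the libraries was not settled (r of deviations -0.162 to 0.209, the highest between HCT116 NIR and mixed NIR). With a replicate block, IER3 in mixed NIR against HCT116 NIR was called (-0.30, edgeR adjusted p = 0.00366) as was FOSL1 in MCF10A IR (0.13, edgeR adjusted p = 0.0392). All-gene calls became 319 higher and 397 lower in mixed NIR against HCT116 NIR. In mixed IR against HCT116 IR they went from 871 and 596 to 1263 and 957. The block changed no other member's call.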

Other observations

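DUSP5, DUSP6 and PHLDA1, early-response genes outside the set of 10 picked after their values were seen, moved in opposite directions in the lines. So did some other listed genes, such as KLF4 (0.91 in MCF10A and -0.93 in HCT116) and KLF6 (0.72 and -0.50). MYC moved in the reverse sense (-0.26 and 0.65). Others, such as HBEGF (1.58 and 1.06) and TRIB1 (0.48 and 0.49), rose in both. DUSP6, an ERK phosphatase, changed by 0.26 log2 units in irradiated MCF10A (SE 0.05, edgeR adjusted p = 6.51e-05) and by -0.66 in irradiated HCT116 (SE 0.07, edgeR adjusted p = 1.54e-08), a difference in response of -0.99 (SE 0.09, edgeR adjusted p = 1.83e-09). DUSP5, a nuclear ERK phosphatase, changed by 0.44 and -0.48, a difference of -0.998 (SE 0.10, edgeR adjusted p = 7.65e-09). PHLDA1, which encodes a pleckstrin homology domain protein, changed by 0.36 and -0.66, a difference of -1.10 (SE 0.06, edgeR adjusted p = 6.49e-13). In the non-irradiated mixtures DUSP5 and DUSP6 were lower than in HCT116 alone (-0.86, SE 0.11, edgeR adjusted p = 0.000199, and -0.47, SE 0.10, edgeR adjusted p = 0.0113), while PHLDA1 did not pass the test (-0.22, SE 0.06, edgeR adjusted p = 0.0913). DUSP1, a phosphatase of stress kinases, rose in irradiated MCF10A (0.53, SE 0.05, edgeR adjusted p = 4.35e-10), and its response was lower in HCT116 (-0.47, SE 0.12, edgeR adjusted p = 0.00201). Its level in non-irradiated HCT116 stood -5.35 log2 units from that in MCF10A (SE 0.08, edgeR adjusted p = 1.57e-19) and its change in irradiated HCT116 did not pass the test (0.13, SE 0.15, edgeR adjusted p = 0.512).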
